A study of Xenopus laevis with 17 samples.

Results

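Gene expression was compared between Xenopus laevis animal caps in which Foxn4 was targeted by a morpholino and caps in which it was targeted by CRISPR. The members were the 4 RNA libraries whose titles name one of these treatments, 2 for each, out of 9 RNA libraries and 17 samples in the series. Animal caps are explants of embryonic ectoderm that can be grown in a dish. All 9 RNA libraries came from caps that had received mRNA of Multicilin, in a form that dexamethasone switches on. The morpholino caps received Multicilin mRNA and a foxn4 morpholino, an antisense oligonucleotide that binds an RNA. The CRISPR caps received Multicilin mRNA, Cas9 protein and a foxn4 guide RNA. For reference, caps with Multicilin mRNA, Cas9 protein and a foxj1 guide RNA (n = 2) and caps with Multicilin alone (n = 3), re-used from an earlier study, were set beside them. The controls carried neither Cas9 nor a guide, per the labels, so study, Cas9 and injection cannot be told apart against them. Dissection at stage 10 was followed by 20 µM dexamethasone at mid-stage 11 and harvest 9 h later, near stage 18, with 20 caps per condition. The labels give neither the region that the morpholino or the guide binds nor the share of edited cells, and Cas9 editing in an injected embryo gives a mixture of cells.

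Multicilin is a coiled-coil regulator that turns ectoderm cells into multiciliated cells, which multiply their centrioles and grow many motile cilia. The forkhead factor Foxj1 activates the motile cilium program, and Foxn4, of the same family, is known from the retina, the spinal cord and multiciliated cells. The larval frog skin also holds ionocytes, which pump protons and ions, and goblet and small secretory cells, which release mucus, lectins and serotonin. Gene roles given below are those known in vertebrates at large, and for many symbols they were worked out in mammals.

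The 4 libraries held 8570033 and 16250144 estimated counts with the morpholino and 8265823 and 12402135 with CRISPR, and the other 5 held between 12147613 and 22041340. Levels are given in CPM, counts scaled to library size. Of 24383 gene models, 19058 passed the low-count filter and were tested, in 1 edgeR fit over all 9 RNA libraries. The morpholino replicates lay further apart than the CRISPR replicates, with 9.85% of 17435 models over 2-fold apart against 3.37%. On the first principal component of the 4 libraries, with 66.9% of the variance, the morpholino libraries stood on one side and the CRISPR libraries on the other. The second, with 19.9%, set the morpholino replicates apart from each other. Whether replicates stem from different clutches or injection days is not given by the labels, so the p-values reflect the spread between these libraries alone, which may be technical. Clutch and treatment therefore cannot be told apart. In bulk RNA, fewer cells of a type and less RNA per cell cannot be told apart either.

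Libraries of the 2 treatments differed in about as many models upward as downward. With the morpholino, 505 models were higher and 537 lower than with CRISPR at a Benjamini-Hochberg adjusted p under 0.05, which is 5.47% of the models tested (2.65% and 2.82%). The libraries of the 2 groups did not overlap in any of the 1042 called models, and they did not overlap in 57.6% of all tested models. The median log2 fold change over all tested models was 0.04. The count depended on every Foxn4 library. It was 69 higher and 125 lower without CRISPR replicate 1, and 61 and 60 without CRISPR replicate 2. It was 166 and 81 without morpholino replicate 1, and 318 and 452 without morpholino replicate 2. A set of 94 calls, 49 higher and 45 lower, was kept in each of the 9 fits that left out 1 library, and no call turned its sign in any of them. Calls from this set are named below as held without each library. Without control replicate 2, which does not enter the contrast but the estimate of the spread, the counts were 785 and 1083.

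**Figure D1:**
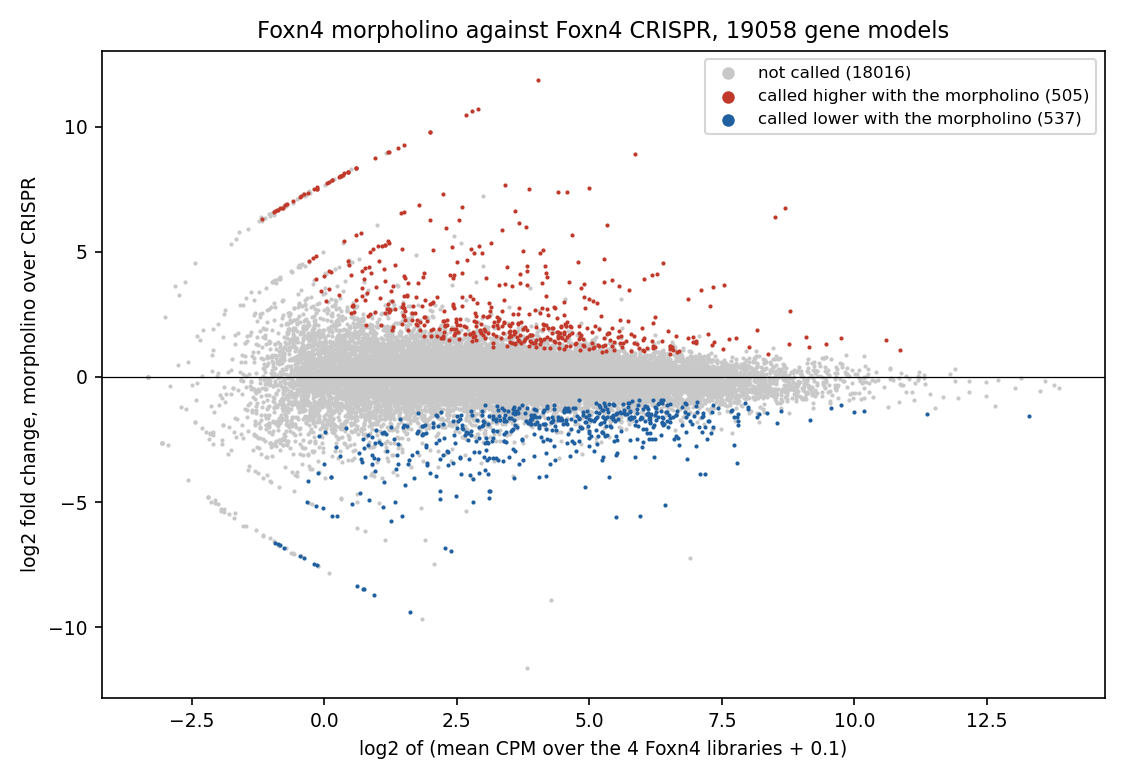
Each point is 1 of the 19058 tested gene models, with the log2 of its mean level (CPM + 0.1) over the 4 Foxn4 libraries on the horizontal axis and the log2 fold change, morpholino over CRISPR, on the vertical axis. The 505 red points were called higher and the 537 blue points lower, and the streaks at the upper and lower left are models with no count in one group, whose fitted fold has no upper bound.

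**Figure D2:**
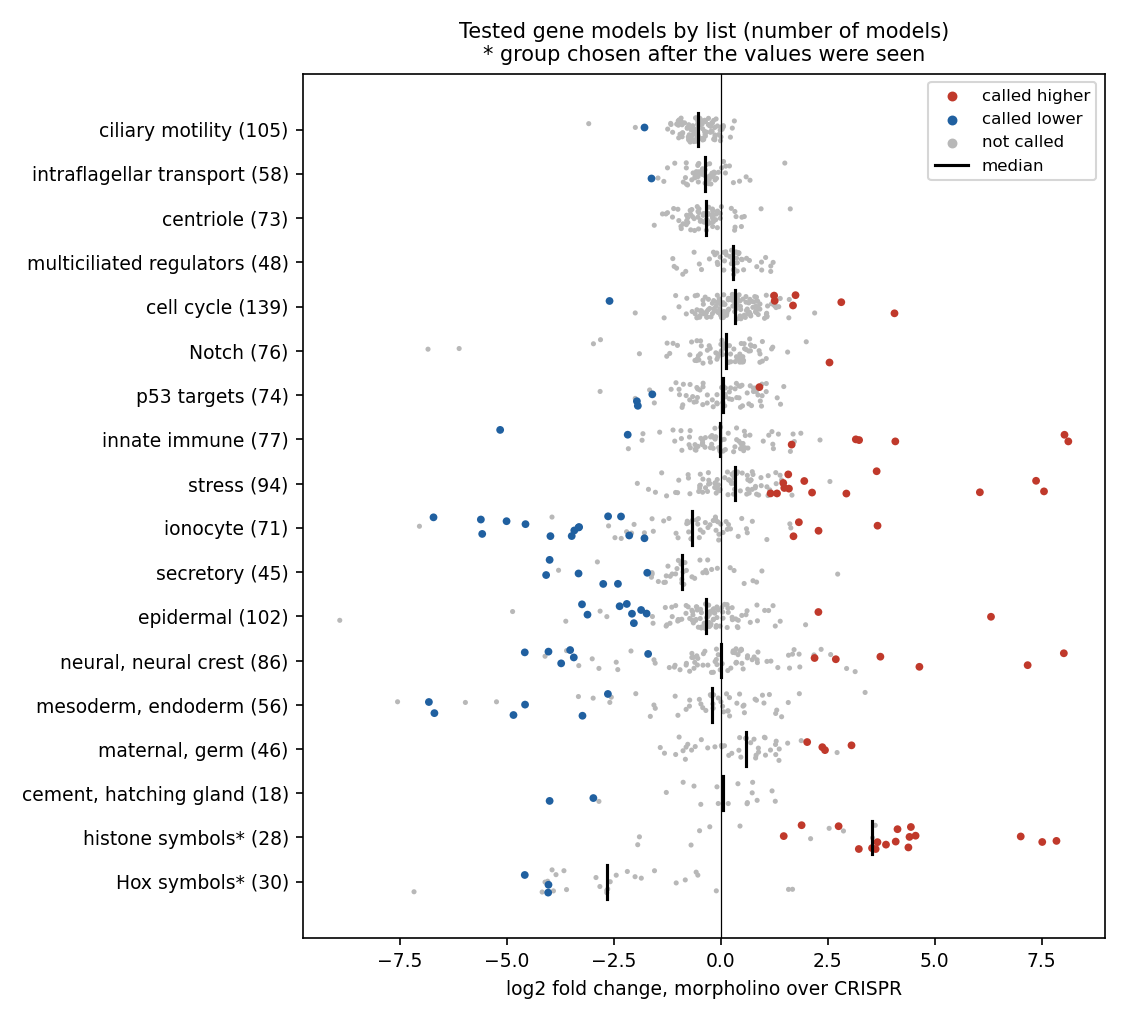
Each point is the log2 fold change, morpholino over CRISPR, of 1 tested model of the list named on the left, with the number of models in brackets, and black bars are medians. Ciliary motility and secretory models lie mostly below 0, with medians of -0.53 and -0.91, and histone models mostly above it, with a median of 3.54.

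The targeted gene was measured first. FOXN4 had 2 tested models on the version 7.1 assembly, at 1820555 to 1834747 of scaffold 44061 and at 1564919 to 1577883 of scaffold 143664. The first stood at 445 and 506 CPM with the morpholino and at 354 and 379.9 CPM with CRISPR, a log2 difference of 0.37 ± 0.61 (adjusted p = 0.744, 95% interval -0.97 to 1.72). The second stood at 464 and 514 CPM and at 215 and 218 CPM, a log2 difference of 1.17 ± 0.59 (adjusted p = 0.254, interval -0.13 to 2.47). In both models the morpholino libraries were above the CRISPR libraries without overlap, and neither was called. The 2 groups did not overlap, in one direction or the other, in 57.6% of all tested models. RNA level does not check either label, because a morpholino need not lower its target's RNA and a small Cas9 deletion need not either. The 2 tested MCIDAS models, which cannot tell injected from endogenous Multicilin RNA, differed by 0.39 ± 0.43 and 0.31 ± 0.57 (adjusted p = 0.621 and 0.779). The 3 FOXJ1 models differed by 0.21, 0.25 and -0.26, with adjusted p between 0.607 and 0.723. Both groups thus carried RNA of the 3 genes at levels whose differences did not pass the test.

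The summed level of motile cilium genes was lower in both morpholino libraries than in both CRISPR libraries, while single models seldom passed the test. Of 105 tested models of ciliary motility proteins, 0 were called higher and 1 lower, but 8.57% had a log2 fold change above 0, against 52.1% of all tested models, and the median was -0.53 against 0.04. Their summed level was 20776 and 24596 CPM in the morpholino libraries and 32422 and 32568 CPM in the CRISPR libraries. It was between 40574 and 65093 CPM in the controls and 10919 and 13661 CPM in the Foxj1 CRISPR libraries. Both Foxn4 groups thus stood between the controls and Foxj1 CRISPR, the morpholino lower than CRISPR, without overlap of groups. The only call was PCDP1, a protein of the central apparatus, at 26.7 and 47.2 CPM against 117 and 139 CPM (log2 -1.79 ± 0.38, adjusted p = 0.027).

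Against the controls, 45.0% of all tested models were called with the morpholino and 23.2% with Foxn4 CRISPR. Set against the same 3 controls, which the 2 comparisons share, the motility models had a median of -1.27 with the morpholino and -0.77 with CRISPR. With the morpholino 82 of them were called lower, where 21.1% of all tested models were called lower. With CRISPR 29 were called lower, where 10.7% were. Models of intraflagellar transport, the cargo traffic of the cilium, had a median of -0.37 between the 2 Foxn4 groups. Of these 58 models 1 was called, where 5.47% of all tested models were. This was IFT46, a subunit of the anterograde train, at 107 and 101 CPM against 332 and 306 CPM (log2 -1.61 ± 0.29, adjusted p = 0.0135). Of 73 centriole models 0 were called by edgeR, with 2 higher and 8 lower at an unadjusted p under 0.05 and a median of -0.33. PCM1, of the centriolar satellites, stood at 3831 and 3317 CPM against 4089.6 and 3939 CPM, and CCDC67, of the deuterosome that multiplies centrioles, at 370.2 and 416 CPM against 667 and 703 CPM. Of 48 models of regulators of the multiciliated state 0 were called, with 5 higher and 2 lower at an unadjusted p under 0.05 and a median of 0.29. Over all 19058 tested models 2230 were higher and 2279 lower at that unadjusted p. Neither the centriole nor the regulator list had a larger share in either direction. By DESeq2 the calls higher and lower were 0 and 7 for motility, 1 and 4 for intraflagellar transport, 2 and 2 for centrioles and 0 and 0 for the regulators. Over all models DESeq2 called 863 higher and 1272 lower, more than edgeR did. The calls of PCDP1 and IFT46 ended without CRISPR replicate 1, without CRISPR replicate 2 and without morpholino replicate 1, and the IFT46 call also without morpholino replicate 2. Without control replicate 2 the lower calls were 9 for motility, 5 for intraflagellar transport and 8 for centrioles, where 1083 of all models were called lower. Without control replicate 1 intraflagellar transport had 2.

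The stress list held genes of the integrated stress response, in which ATF4 raises amino acid synthesis when protein synthesis is checked, beside chaperones and early response genes. Of its 94 tested models 13 were higher and 0 lower (13.8% called, against 5.47% of all tested models), with a median of 0.33. Set against the shared controls, 26 were called higher and 11 lower with the morpholino, where 23.9% and 21.1% of all tested models were. With CRISPR 7 were higher and 9 lower, where 12.6% and 10.7% of all tested models were. The summed level of the list was 14750 and 12048 CPM with the morpholino and 14132, 13031 and 12251 CPM in the controls, which overlap on this scaling. Sums over all tested models were lower with the morpholino than in the controls, so shares of the counts need not have this order. It was 11048 and 8353 CPM with CRISPR and 10091 and 8305 CPM with Foxj1 CRISPR. CHAC1, a glutathione-degrading enzyme and target of ATF4, stood at 94.8 and 31.7 CPM with the morpholino and at 0.12 and 0.476 CPM with CRISPR, against 9.39, 6.21 and 1.84 CPM in the controls. The morpholino libraries were above all others, and the CRISPR libraries below all controls (log2 7.56 ± 1.0, adjusted p = 0.0039, held without each library). PSAT1, the second enzyme of serine synthesis, had one model at 67 and 16.7 CPM against 0.361 and 0.159 CPM (log2 7.37 ± 0.88, adjusted p = 0.00239, held without each library). Its other model stood at 130.4 and 29.1 CPM against 1.08 and 1.27 CPM (log2 6.06 ± 0.80, adjusted p = 0.00387). In CHAC1 and in both PSAT1 models morpholino replicate 1 was well above replicate 2, and both were above all 7 other libraries.

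Further calls of this list are given as chosen after their values were seen. ATF4 itself had 2 models called, at 633 and 611 CPM against 272 and 226 CPM (log2 1.32 ± 0.24, adjusted p = 0.0136) and at 103 and 86.4 CPM against 35.2 and 32.2 CPM (log2 1.49 ± 0.29, adjusted p = 0.0206). DDIT3, the CHOP factor downstream of ATF4, stood at 5.89 and 2.81 CPM against 0.361 and 0.317 CPM (log2 3.65 ± 0.83, adjusted p = 0.035). PSPH, the last enzyme of serine synthesis, was higher in 2 models, by 1.60 and 1.58, but there the controls stood with the morpholino, at 50.6, 39.2 and 40.0 CPM against 55.6 and 29.9 CPM in the first. The immediate early factor JUN stood at 11 and 19.3 CPM against 2.05 and 1.90 CPM and the early response gene IER2 at 18.7 and 40.5 CPM against 6.75 and 8.48 CPM (log2 2.94 ± 0.40 and 1.96 ± 0.47, adjusted p = 0.00429 and 0.0409). Chaperones were also called, with HSPA8 at 2709 and 1831 CPM against 979 and 666 CPM, one of the 5 most abundant models called higher (log2 1.46 ± 0.37, adjusted p = 0.0458), a call that ended without any one of the 4 Foxn4 libraries. The log2 differences of HSPH1 and HSPD1 were 2.14 and 1.17. The 13 calls of the list became 4 without CRISPR replicate 1, 2 without CRISPR replicate 2 and 5 without morpholino replicate 1, and were 11 without morpholino replicate 2. Lower calls, 0 here, were 3 with DESeq2, with the 6 libraries of this study alone and with all matching reads, and 4 with length correction and without control replicate 2.

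Most histone models, a group chosen after the values were seen, were called higher with the morpholino. Their messages mostly end in a stem-loop in place of a poly-A tail, and these libraries were made from poly-A RNA. What part this has in the result was not tested. Of 28 tested models whose symbol begins with HIST, 17 were higher and 0 lower, where 2.65% and 2.82% of all tested models were. Their median log2 fold change was 3.54. Their summed level was 866 and 1757 CPM with the morpholino, 224 and 239 CPM with CRISPR, 272 and 249.6 CPM with Foxj1 CRISPR and between 141 and 188 CPM in the controls. In this sum the 2 morpholino libraries stood above all 7 others, with both CRISPR groups between them and the controls. Much of the gap between the CRISPR groups and the controls lay in the HIST2H2AB model on scaffold 261090. It stood at 121 and 121 CPM with CRISPR and 174 and 149 CPM with Foxj1 CRISPR. In the controls it stood at 43.2, 46.7 and 84.7 CPM. Over the histone models the median of CRISPR against the controls was -0.04. HIST2H3D, a histone H3, had one model at 63.7 and 96.2 CPM against 6.27 and 4.76 CPM (log2 3.86 ± 0.35, adjusted p = 0.00088, held without each library). HIST1H4K, a histone H4, stood in one model at 51.6 and 124 CPM against 5.66 and 8.48 CPM (log2 3.62 ± 0.56, adjusted p = 0.00801). HIST2H2AB on scaffold 111824, a histone H2A and one of the 10 largest differences, stood at 20.2 and 37.4 CPM against 0.361 and 0 CPM, a ratio of 217 with a counting interval of 74.1 to 1055.

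Set against the shared controls, 21 histone models were called higher with the morpholino, where 23.9% of all tested models were. With CRISPR 5 were, where 12.6% of all were. Near-identical histone copies share reads, and summed over models of a symbol 5 of the 8 symbols were called. With uniquely matching reads 12 were higher and 1 lower, HIST2H2AB on scaffold 277614, at -1.38 (adjusted p = 0.0221). These 12 were all among the 17 calls higher of the main fit. The rest of the 17, HIST2H2AB on scaffold 111824 among them, had no test value with uniquely matching reads. The lower count therefore does not mean that tested calls were lost, and those models were not checked in this way. The 17 calls became 5 without CRISPR replicate 1, 7 without CRISPR replicate 2, 12 without morpholino replicate 1 and 9 without morpholino replicate 2. H3F3A, which codes for the replication-independent histone H3.3, was among the most abundant models called higher. Its model on scaffold 71264 stood at 2883 and 2150.4 CPM against 1256 and 1121 CPM (log2 1.08 ± 0.27, adjusted p = 0.0443) and that on scaffold 227943 at 942 and 626 CPM against 375 and 317 CPM (log2 1.18 ± 0.28, adjusted p = 0.0399). Of its other 4 tested models 0 were called, and both calls ended without either CRISPR replicate and without morpholino replicate 1.

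**Figure D3:**
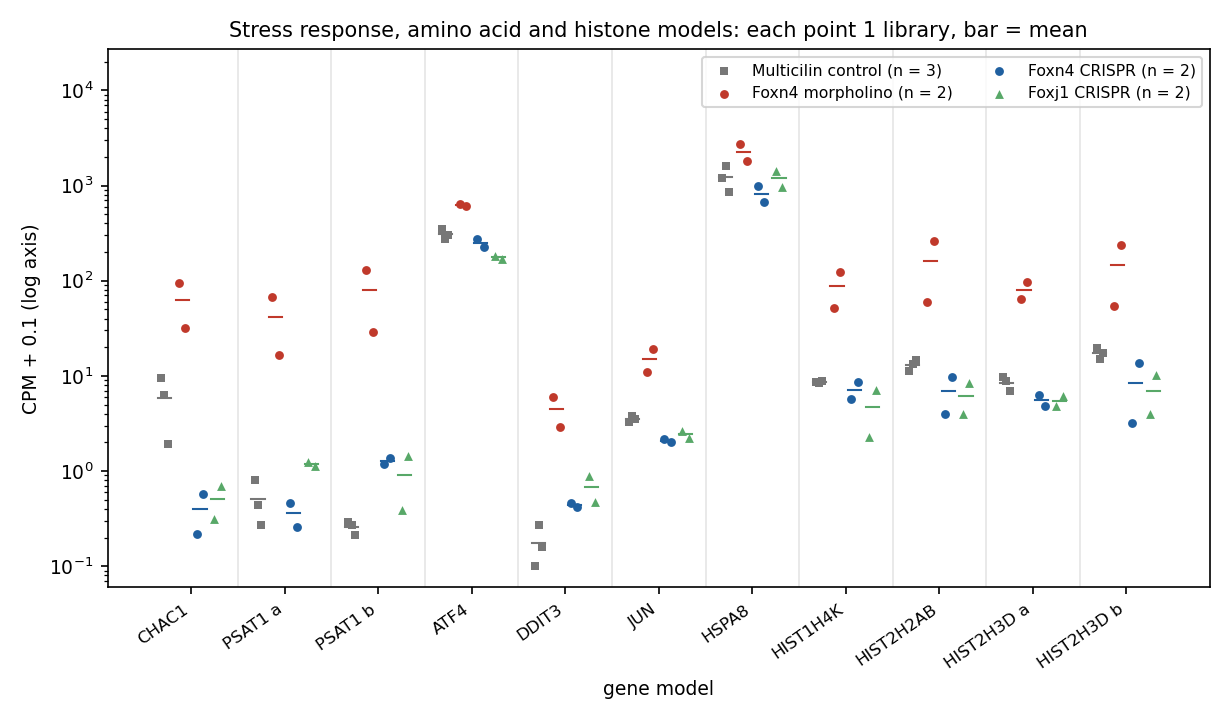
Each point is the level of 1 model in 1 library, as CPM + 0.1 on a log axis, and bars are group means. PSAT1 a and b are the models on scaffolds 86871 and 29017, and HIST2H3D a and b those on scaffolds 45548 and 74488. In the 11 models shown the morpholino points lie above the Foxn4 CRISPR points.

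Of 139 tested cell cycle models 6 were higher and 1 lower, with a median of 0.33. That is 5.04% called, near the 5.47% of all tested models. CDC25B, a phosphatase that activates mitotic kinases, stood at 310.4 and 236 CPM against 30.0 and 47.2 CPM, and between 3.62 and 9.20 CPM in the controls (log2 2.82 ± 0.46, adjusted p = 0.00927). KIF20A, a mitotic kinesin, stood at 47.2 and 39.3 CPM against 9.52 and 16 CPM (log2 1.75 ± 0.34, adjusted p = 0.0184). A model of cyclin B1, CCNB1, was near the floor with CRISPR and 17.7 times higher with the morpholino (counting interval 5.81 to 87.8). CDC25A, the phosphatase of the S-phase entry, went the other way, at 11.7 and 24.8 CPM against 105 and 116 CPM, and 583, 286 and 673 CPM in the controls (log2 -2.59 ± 0.50, adjusted p = 0.0187). The 6 calls became 0 without either CRISPR replicate and without morpholino replicate 1, where the CDC25A call was lost too. They were 3 without either Foxj1 CRISPR replicate and 11 without control replicate 2.

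Of 76 Notch pathway models 1 was called, 1.32% against 5.47% of all tested models. This was HES5, a repressor that Notch switches on, at 30.3 and 26.7 CPM against 5.06 and 4.76 CPM (log2 2.54 ± 0.41, adjusted p = 0.0089). The other tested HES5 models were not called. Of 74 models of p53 targets 1 was higher and 3 lower, 5.41% against 5.47% of all tested models, with a median of 0.06. CCNG2, cyclin G2, stood in one model at 16.6 and 21.3 CPM against 52.8 and 62 CPM (log2 -1.59 ± 0.25, adjusted p = 0.00836), and its other model differed by -1.95 ± 0.46 (adjusted p = 0.0381). BTG2 stood at 2.85 and 3.65 CPM against 9.64 and 15.3 CPM (log2 -1.93 ± 0.40, adjusted p = 0.024). TP53I11, at 0.91, turned to -1.78 when uniquely matching reads were counted. The HES5 call ended without either CRISPR replicate and without morpholino replicate 1, and the 3 lower p53 calls became 1 without CRISPR replicate 1 and 0 without CRISPR replicate 2 or morpholino replicate 1. Without control replicate 2 there were 9.

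Of the 16 gene lists, the ionocyte list had the largest share of calls, 25.4% against 5.47% of all tested models. The histone group is not one of these lists and had a larger share. Of 71 tested models 4 were higher and 14 lower with the morpholino, with a median of -0.66. SLC26A4, the anion exchanger pendrin, stood at 1.87 and 1.80 CPM with the morpholino, 47.6 and 130.2 CPM with CRISPR and 52.2, 98.4 and 23.5 CPM in the controls. Both morpholino libraries were thus far below all 7 others (log2 -5.60 ± 0.83, adjusted p = 0.00615). Subunits of the proton pump followed, with ATP6V0A4 at 0.196 and 0.561 CPM against 5.78 and 20.9 CPM (log2 -5.00 ± 1.07, adjusted p = 0.0271). ATP6V1G3 on scaffold 23165 was lower by a ratio of 65.6, with a counting interval of 11.2 to 2642. ATP6V0D1 on scaffold 22127, chosen after its values were seen, stood at 3.14 and 1.29 CPM against 28.8 and 38.7 CPM (log2 -3.97 ± 0.54, adjusted p = 0.00432) and held without each library.

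FOXI1, the factor that sets up ionocytes, had 6 tested models that did not move together. In all, 2 were called higher and 2 lower. On scaffold 3467 one model was higher with the morpholino, at 81 and 76.6 CPM against 17.1 and 15.1 CPM (log2 2.29 ± 0.36, adjusted p = 0.00836). On scaffolds 179377 and 48253 the models were lower, by -3.48 ± 0.74 and -3.30 ± 0.69 (adjusted p = 0.0269 and 0.0254). Summed over the 6 models, FOXI1 differed by 0.95 (adjusted p = 0.205), so the direction for the symbol as a whole was the opposite of these 2 models. CA4, a carbonic anhydrase, was also split, with models on scaffolds 43729 and 47398 higher, by 3.67 and 1.83, and one on scaffold 96766 lower, at 0 CPM in both morpholino libraries and at least 8.48 times higher with CRISPR. The CA4 model on scaffold 47398 turned to -1.02 with uniquely matching reads and to -0.0188 with counts corrected for length, and the sum over the CA4 models was 1.63. The 14 lower ionocyte calls became 8 without CRISPR replicate 1, 2 without CRISPR replicate 2, 2 without morpholino replicate 1 and 6 without morpholino replicate 2.

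Secretory cell genes were lower with the morpholino where they were called. Of 45 tested models 0 were higher and 6 lower (13.3% called, against 5.47% of all tested models), with a median of -0.91. CAPN9, a calpain of mucus-secreting epithelia, had one model at 1.77 and 2.97 CPM with the morpholino, 17.8 and 30.5 CPM with CRISPR and 137, 143 and 103 CPM in the controls, 3 levels without overlap (log2 -3.32 ± 0.43, adjusted p = 0.00336, held without each library). Another of its 3 tested models differed by -4.07 ± 0.63 (adjusted p = 0.00793). AGR2, which helps mucins fold, stood at 2.06 and 1.80 CPM against 51.9 and 9.75 CPM (log2 -3.99 ± 0.91, adjusted p = 0.0345), with the CRISPR replicates far apart. ITLN1, a lectin of goblet cells chosen after its values were seen, stood at 29.3 and 37.4 CPM against 185 and 262 CPM and 815, 2358 and 1252 CPM in the controls (log2 -2.74 ± 0.45, adjusted p = 0.00992). The 6 calls became 3 without CRISPR replicate 1, 2 without CRISPR replicate 2 and 1 without morpholino replicate 1, and were 10 without control replicate 2. The summed level of the list was 6772 and 10200 CPM with the morpholino, 18642 and 15598 CPM with CRISPR and between 20230 and 44317 CPM in the controls.

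Of 102 epidermal models 2 were higher and 8 lower (9.80% called, against 5.47% of all tested models), with a median of -0.34. KLF5, an epithelial transcription factor, stood at 0.982 and 2.36 CPM against 12.8 and 20.0 CPM (log2 -3.24 ± 0.47, adjusted p = 0.00591, held without each library), but summed over its models it differed by 0.0328. KRT18, a simple-epithelial keratin, stood at 1.18 and 0.786 CPM against 7.71 and 8.96 CPM (log2 -3.11 ± 0.46, adjusted p = 0.00615). MSX1, a target of BMP signals in ectoderm, stood at 17.4 and 6.06 CPM against 63.3 and 55.6 CPM (log2 -2.36 ± 0.47, adjusted p = 0.0218). The models called higher were both low. UPK3A, a uroplakin, was at 0 CPM with CRISPR and at least 4.98 times higher with the morpholino, and OCLN, occludin, differed by 2.29 and by -0.0239 summed over its models. The 8 lower calls became 3 without CRISPR replicate 1, 1 without CRISPR replicate 2 and 4 without morpholino replicate 1, and were 18 without control replicate 2.

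GBX2, a homeobox factor that sets the border of midbrain and hindbrain, had 3 called models, of which 1 stood at 0.786 and 0.786 CPM against 9.52 and 8.64 CPM and 63.8, 49.4 and 46.2 CPM in the controls (log2 -3.51 ± 0.39, adjusted p = 0.00178), and all 3 held without each library. Over all Hox genes, a group chosen after the values were seen, 28 of 30 tested models were below 0, and the median was -2.66. Of all tested models 52.1% were above 0, and most of the Hox models stood at a few CPM or less in both Foxn4 groups. Of these 30 models 3 were called lower and 0 higher, where 2.82% and 2.65% of all tested models were. Their summed level was 10.4 and 19.1 CPM with the morpholino and 71.9 and 106.8 CPM with CRISPR, against 60.8 and 105.2 CPM with Foxj1 CRISPR and between 267 and 345 CPM in the controls. One of the Hox calls was HOXA3, at 0.393 and 0.337 CPM against 3.86 and 8.01 CPM (log2 -4.03 ± 0.52, adjusted p = 0.00336), held without each library. The 3 Hox calls became 6 without control replicate 2 and 5 without control replicate 3.

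T, the brachyury factor of the early mesoderm, stood on scaffold 312114 at 0.196 and 0 CPM with the morpholino and at 11 and 7.77 CPM with CRISPR, a ratio of 126 with a counting interval of 34.5 to 1052 (adjusted p = 0.00995). CDX2, a caudal factor of the posterior body, was lower in 2 models, at 0.491 and 0.617 CPM against 18.1 and 14.7 CPM and at 0.196 and 1.07 CPM against 15.8 and 17.6 CPM (log2 -4.84 ± 1.0 and -4.57 ± 0.96, adjusted p = 0.0237 and 0.0255). MYF5, a factor of muscle precursors, was at 0 CPM with the morpholino and under 1 CPM with CRISPR, at least 8.48 times higher with the latter. Of 56 mesoderm and endoderm models 0 were higher and 6 lower (10.7% called, against 5.47% of all tested models), with a median of -0.20. These 6 became 1 without either CRISPR replicate, 0 without morpholino replicate 1 and 2 without morpholino replicate 2. In the second CDX2 model the Foxj1 CRISPR libraries, at 25.5 and 35.3 CPM, were above both Foxn4 groups, and the controls, at 0.317, 1.02 and 4.07 CPM, were low.

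**Figure D4:**
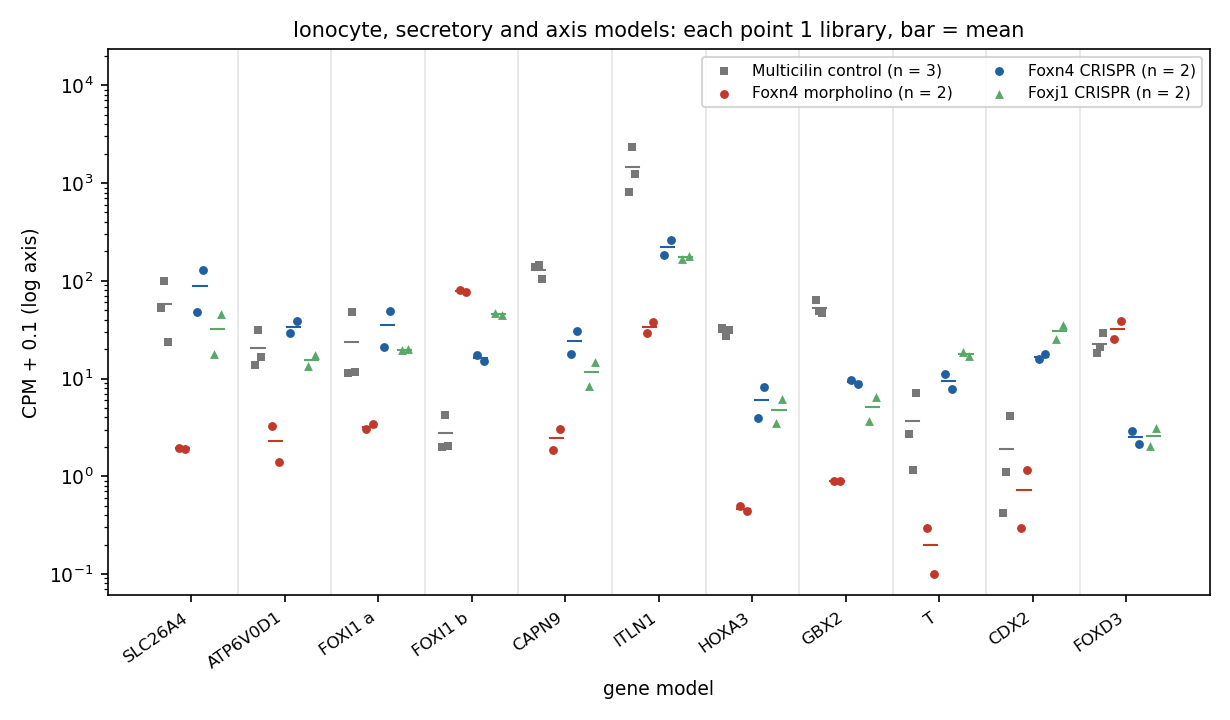
Each point is the level of 1 model in 1 library, as CPM + 0.1 on a log axis, and bars are group means. FOXI1 a and b are the models on scaffolds 179377 and 3467, which go opposite ways. The red morpholino points lie below the blue Foxn4 CRISPR points except in FOXI1 b and FOXD3.

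Neural genes went both ways. Of 86 models of neural and neural crest genes 6 were higher and 6 lower (13.95% called, against 5.47% of all tested models). The median was 0.01, and the lower models included the GBX2 models above. FOXD3, a neural crest factor chosen after its values were seen, stood at 25.2 and 38.5 CPM with the morpholino and 18, 20.9 and 28.9 CPM in the controls, against 2.77 and 2.06 CPM with Foxn4 CRISPR and 1.95 and 3.02 CPM with Foxj1 CRISPR (log2 3.73 ± 0.41, adjusted p = 0.0017, held without each library). TUBB2B, a neuronal tubulin, differed by 4.65 in a model near the floor, and by -0.55 with all matching reads and -0.53 summed over its models. The 6 higher calls became 1 without either CRISPR replicate, 2 without morpholino replicate 1 and 3 without morpholino replicate 2, and the 6 lower calls 10 without control replicate 2.

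Of 46 maternal and germ-line models 4 were higher and 0 lower (8.70% called, against 5.47% of all tested models), with a median of 0.60. ZP4, an egg coat protein, was higher in 2 models, at 13.9 and 10.4 CPM against 2.05 and 2.38 CPM and 14 and 13.8 CPM against 2.53 and 2.77 CPM (log2 2.44 ± 0.39 and 2.38 ± 0.34, adjusted p = 0.00843 and 0.00523). MOS, the kinase of egg maturation, differed by 3.06 ± 0.67 (adjusted p = 0.0299). These 4 calls became 0 without either CRISPR replicate and 2 without morpholino replicate 1. Of 18 cement gland and hatching gland models 0 were higher and 2 lower (11.1% called, against 5.47% of all tested models). These were AGR2 and the hatching protease ASTL. ASTL stood at 1.57 and 3.70 CPM against 15.2 and 27.5 CPM and 1255, 1779 and 1488 CPM in the controls (log2 -2.97 ± 0.54, adjusted p = 0.015). The ASTL and AGR2 calls became 1 without either CRISPR replicate or without morpholino replicate 2, and 0 without morpholino replicate 1.

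Of 77 innate immune models 6 were higher and 2 lower (10.4% called, against 5.47% of all tested models), with a median of -0.01. IL1B, a cytokine, and TLR7, a receptor of viral RNA, were at 0 CPM with CRISPR and at least 19.7 and 16.2 times higher with the morpholino, at levels under 4 CPM. C3, a complement protein, was lower, at 11 and 12 CPM against 60.0 and 43.5 CPM (log2 -2.17 ± 0.39, adjusted p = 0.0136). C1QA, another complement gene, was lower at under 2 CPM and stood at 0.49 in the other direction with all matching reads. The 6 higher calls became 0 without either CRISPR replicate, 4 without morpholino replicate 1 and 1 without morpholino replicate 2, and the 2 lower calls 0 without any one of the 4.

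Among the most abundant models called lower with the morpholino was EEF1A1, the translation elongation factor, at 3431 and 6571 CPM against 15865 and 13994 CPM on scaffold 300439 (log2 -1.58 ± 0.30, adjusted p = 0.0182) and at 1288 and 1506 CPM against 3851 and 3979.7 CPM on scaffold 52702 (log2 -1.49 ± 0.22, adjusted p = 0.00644). ACTG1, a cytoplasmic actin, stood at 568 and 737 CPM against 1434 and 1905 CPM (log2 -1.35 ± 0.30, adjusted p = 0.0309). Another EEF1A1 model was called lower too. The controls lay with CRISPR in the EEF1A1 models named and above it in ACTG1. ODC1, the first enzyme of polyamine synthesis, differed by -1.41 ± 0.29 (adjusted p = 0.025) but by 0.16 summed over its models. TCP11L2 stood at 302 and 225 CPM against 815 and 940.4 CPM (log2 -1.74 ± 0.24, adjusted p = 0.0047). On the higher side were HAL, which breaks down histidine, at 1369 and 1186 CPM against 395 and 478 CPM (log2 1.55 ± 0.26, adjusted p = 0.00984), and CHD4, a chromatin remodeller, at 1035 and 990.3 CPM against 496 and 315 CPM (log2 1.32 ± 0.32, adjusted p = 0.0401). None of these models held without each library.

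The firmest calls were also set beside the groups that the contrast did not use. In all 49 calls that were higher and held without each library, the Foxj1 CRISPR mean was nearer to Foxn4 CRISPR than to the morpholino, and in 34 of them the control mean was nearer to the morpholino. Over all tested models Foxj1 CRISPR was nearer to Foxn4 CRISPR in 59.7% and the control nearer to Foxn4 CRISPR in 67.1%. Over all 505 models called higher these shares were 93.1% and 61.4%. In most of the 505 the control was thus nearer to Foxn4 CRISPR, unlike in the 49 held calls. The models were picked for the distance between the Foxn4 groups, so these counts are a description. Of the 505 models called higher, Foxj1 CRISPR against the controls was called higher in 89 and lower in 194, and of the 537 called lower it was called higher in 101 and lower in 275, where 40.5% of all tested models were called, 19.8% higher and 20.7% lower. NCEH1, a cholesterol ester hydrolase, stood on scaffold 58994 at 572 and 1064 CPM with the morpholino and 1057, 1237 and 1291 CPM in the controls. It stood at 5.06 and 10.1 CPM with Foxn4 CRISPR and 6.15 and 9.71 CPM with Foxj1 CRISPR (log2 6.73 ± 0.49, adjusted p = 0.000393). In this model the 4 CRISPR libraries, with guides to different genes, thus lay together and far below the other 5. The other tested NCEH1 model, on scaffold 58517, was not called (log2 -1.30 ± 0.68, adjusted p = 0.282). It stood at 11.4 and 8.59 CPM with the morpholino and 11.4, 2.54 and 3.33 CPM in the controls. In the Foxn4 and Foxj1 CRISPR libraries it stood at 15.1 and 33.7 CPM and at 27.3 and 61.8 CPM. The sum of both models differed by 4.70 (adjusted p = 0.00221).

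Further models with the order of groups of the NCEH1 model on scaffold 58994 were chosen after their values were seen. COPS5, a subunit of the COP9 signalosome, stood on scaffold 58038 at 122 and 124 CPM and 306, 177 and 363 CPM in morpholino and control caps, and at 7.47 and 8.72 CPM and 6.44 and 8.91 CPM in Foxn4 and Foxj1 CRISPR caps (log2 3.92 ± 0.38, adjusted p = 0.00119). Its other tested model, on scaffold 10587, was not called, at 53.5 and 48.2 CPM against 64 and 75.1 CPM, and the sum of both differed by 1.17 (adjusted p = 0.0574). EXOSC8, a subunit of the RNA exosome, had one model at 20.7 and 27.7 CPM against 0.723 and 1.98 CPM and the other at 18.3 and 12.8 CPM against 22.4 and 20.5 CPM, with a sum of 0.81 (adjusted p = 0.0666). MTAP, an enzyme of methionine salvage, had 1 tested model, at 118 and 157 CPM against 7.83 and 8.48 CPM (log2 4.07 ± 0.46, adjusted p = 0.00191). Of the 49 held higher calls 40 carried a symbol, and 20 of these had another tested model of that symbol.

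Of the 45 lower calls that held without each library, Foxj1 CRISPR was nearer to Foxn4 CRISPR in 39, which is 86.7%. The control was nearer to the morpholino in 16 and to Foxn4 CRISPR in 64.4%. Over all tested models the shares nearer to Foxn4 CRISPR were 59.7% and 67.1%, so that of the control was near the share of all. Over all 537 models called lower they were 76.9% and 80.6%. PAQR5, a membrane progestin receptor, stood on scaffold 41091 at 1.08 and 3.87 CPM with the morpholino and 0.19, 0.451 and 1.09 CPM in the controls, against 129.9 and 113 CPM and 88.3 and 79.3 CPM in the Foxn4 and Foxj1 CRISPR libraries (log2 -5.55 ± 0.63, adjusted p = 0.00191). Its 3 other tested models were not called, and the 4 models summed differed by -1.08 (adjusted p = 0.106). ZNRD1, a subunit of RNA polymerase I chosen after its values were seen, was at 0 CPM in all morpholino and control libraries and at 5.66 and 6.26 CPM and 7.74 and 7.29 CPM in the CRISPR libraries of the 2 targets. It was at least 56.2 times higher with Foxn4 CRISPR than with the morpholino. PDE6B, a photoreceptor phosphodiesterase, and DENND2A had the same order of groups, with differences of -4.76 and -4.39 that became 0.69 and 0.23 with all matching reads.

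Models at the floor in the CRISPR libraries were few. In 7 models the 4 CRISPR libraries together held at most 3 counts while both morpholino libraries stood at 5 CPM or more, and in 5 of the 7 all controls stood at 1 CPM or more. Of these 7, 3 were also at the floor when all matching reads were counted. TMEM88, an inhibitor of Wnt signals, had 3 tested models. That on scaffold 63696 was at 0 CPM in the 4 CRISPR libraries, at 10.5 and 16.9 CPM with the morpholino and at 7.11, 4.96 and 9.01 CPM in the controls. It was at least 102 times higher with the morpholino than with Foxn4 CRISPR. The model on scaffold 83691 was called higher too, by 5.66 (adjusted p = 0.0126). That on scaffold 122517 was not called, at 7.66 and 9.71 CPM against 11.6 and 12.3 CPM. Summed, the 3 models differed by 1.08 (adjusted p = 0.0599). FAM166A and CCDC42 were at least 253 and 107 times higher, but in CCDC42 the Foxn4 CRISPR libraries held 316 reads when all matching reads were counted. BTBD17 was highest in the controls, at 57.2, 20.2 and 74.5 CPM, with 10.1 and 13.5 CPM with the morpholino and 0.241 and 0 CPM with Foxn4 CRISPR. GTF2I, a transcription factor, followed another order on scaffold 166365. This model stood at 92.2 and 138 CPM with the morpholino and at most 1.41 CPM in any of the other 7 libraries (log2 8.90 ± 0.78, adjusted p = 0.000881, held without each library). The other tested GTF2I model, on scaffold 114601, was not called, at 8.94 and 8.98 CPM against 3.98 and 5.79 CPM (log2 0.87 ± 0.44, adjusted p = 0.264). The sum of both GTF2I models differed by 4.61 (adjusted p = 0.00169).

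The remaining models of the 10 largest differences in each direction included PMCH, the precursor of melanin-concentrating hormone, at 57.8 and 37.6 CPM against 0 and 0.476 CPM (log2 7.38 ± 0.96, adjusted p = 0.00362). RGS2, a brake on G-protein signals, was lower by a ratio of 157 with a counting interval of 43.1 to 1306. ANK3, the ankyrin that anchors membrane channels, stood on scaffold 220448 at 1.57 and 7.75 CPM with the morpholino and 207 and 126 CPM with Foxn4 CRISPR. It stood at 27.6 and 16.9 CPM with Foxj1 CRISPR and 596, 285 and 908 CPM in the controls (log2 -5.11 ± 0.76, adjusted p = 0.00626). Here the order ran from the controls through both CRISPR groups down to the morpholino, and the 4 groups did not overlap. The other tested ANK3 models were not called, with differences of 0.59, -0.39 and -0.96. Summed, the 4 ANK3 models differed by -2.14 (adjusted p = 0.0291).

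**Figure D5:**
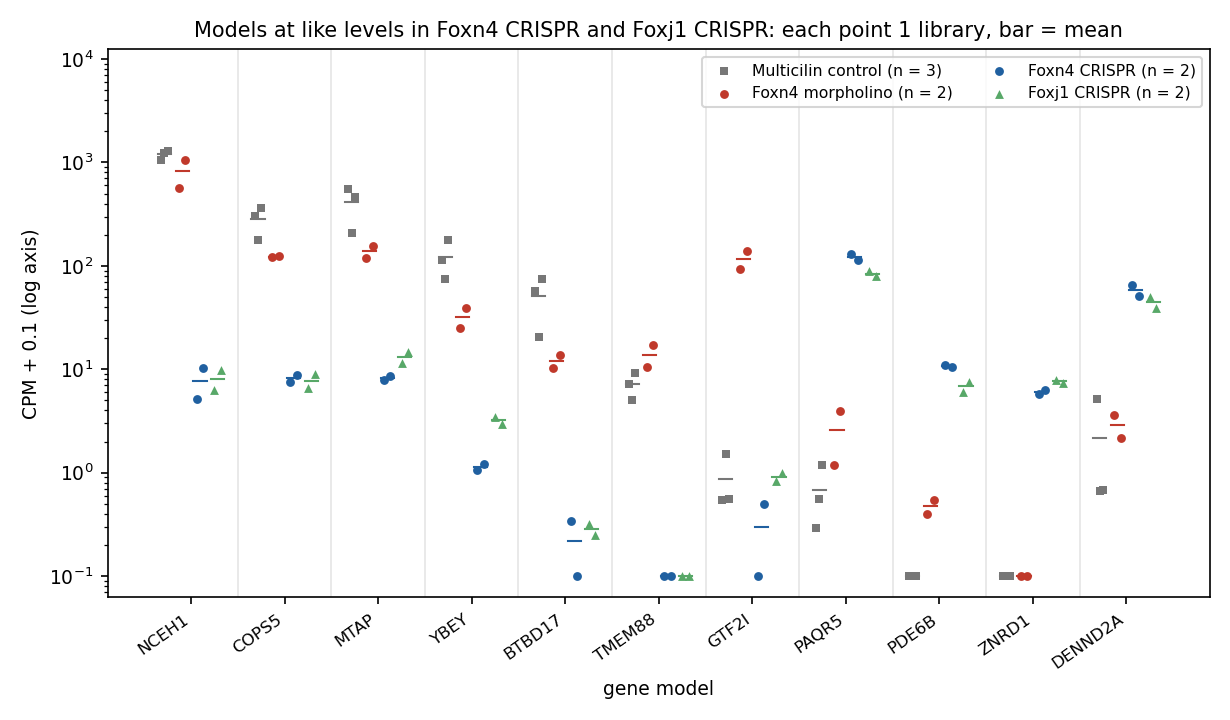
Each point is the level of 1 model in 1 library, as CPM + 0.1 on a log axis, and bars are group means. The 11 models were chosen for this figure after their values were seen, for like levels in both CRISPR groups, so that likeness is not a result. Blue Foxn4 CRISPR and green Foxj1 CRISPR points are low in the first 7 and high in the last 4, while the morpholino lies apart. In YBEY they were less alike, at 0.964 and 1.11 CPM with Foxn4 CRISPR and 3.33 and 2.87 CPM with Foxj1 CRISPR.

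Other models of a called symbol were called the same way in a minority of cases, with smaller differences. Of the 467 models called higher with a symbol, 331 had another tested model of that symbol, and 112 of the 631 such other models were called higher and 14 lower, where 2.65% of all tested models were called higher. Their median difference in the direction of the call was 0.55, against 2.08 for the called models. Of the 527 called lower with a symbol, 371 had another, and 124 of 580 were called lower and 14 higher, where 2.82% of all tested models were called lower. Those medians were 0.57 and 1.88. Many X. laevis genes are present as a pair from genome duplication, and how reads common to a pair are shared out between its models is uncertain. Summed over models of a symbol, 288 symbols were called higher and 325 lower.

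Foxn4 binding near the start of the called models was described from the deposited peak lists, 1 library each. With Foxn4 and Multicilin together, 24.8% of the models called higher with the morpholino had a peak within 1000 bp of their start (exact 95% interval 21 to 28.8), 39.7% of those called lower (35.5 to 43.9) and 38.9% of all tested models. With Foxn4 alone the shares were 43.0%, 57.2% and 63.9%. Within 5000 bp they were 34.7%, 57.0% and 49.3% with Foxn4 and Multicilin and 56.2%, 79.3% and 76.4% with Foxn4 alone. The models called higher were below all tested models at both distances, while the place of those called lower changed with the distance and the list. Among the ciliary motility models 88.6% had a peak with Foxn4 and Multicilin. The intervals cover counting error only.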

How the data were processed

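RNA was measured in 9 libraries of animal caps. Per the labels, they were made with a non-stranded poly-A kit, so a gene and its antisense partner cannot be told apart. The authors deposited eXpress tables with estimated counts, uniquely and all matching counts and FPKM for each gene model, and per the submitters' processing notes STAR, eXpress and DESeq were used, with no versions or parameters given in the sources used here. Reads were aligned to X. laevis gene models and the version 7.1 genome, per the series' design text. The estimated counts were the values tested, after rounding to whole numbers. Per the file headers, the deposited HOMER peak lists give a tag signal per peak, and here only peak positions were used.

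Models were tested with edgeR 4.0.16 in R 4.3.3 (quasi-likelihood test, TMM scaling, filterByExpr by group), 1 fit over 9 libraries, with the contrast of morpholino minus CRISPR and Benjamini-Hochberg adjustment over 19058 models at 0.05. Fold changes are given as log2 ± standard error. Of the 24383 models, 519 carried no symbol and were kept, with between 1.70% and 2.43% of the counts of a library. Where a group held no count, the bound uses 3 counts over the group, and where it held 1 to 3, an exact 95% counting interval is given. Intervals and floors cover counting error only. DESeq2 1.42.0, other scalings, filters, count columns and omitted libraries were alternatives. The fit was tested on simulated data.

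The members and the gene lists were chosen with earlier results of these data known. Named genes were FOXN4, FOXJ1 and MCIDAS, the 10 largest calls in each direction with a symbol, a mean of at least 5 CPM and no overlap, up to 3 called members of each list in each direction by fold (with none, its 2 most abundant members), and the 5 most abundant calls in each direction. Any other gene is said to be chosen after its values were seen. Some genes that this rule names are not reported here.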

Additional observations from a re-analysis of the deposited data

How the results depend on the processing

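The main counts, 505 higher and 537 lower, moved by over 1.5 times under some alternatives. They were 863 and 1272 with DESeq2, 667 and 986 with the 6 libraries of this study alone, 481 and 813 with uniquely matching reads and 2062 and 1489 with all matching reads. They were 786 and 951 with counts corrected for effective length, 288 and 325 summed by symbol and 223 and 206 tested against a fold of 1.5. Leaving out 1 library gave 61 to 785 higher and 60 to 1083 lower. List members called, 43 higher and 49 lower in all, became 61 and 109 with DESeq2, 47 and 75 with the 4 Foxn4 libraries alone, 57 and 99 with 6 libraries, 100 and 137 with all matching reads, 60 and 76 with length correction, 20 and 26 summed by symbol and 21 and 32 against a fold of 1.5. Leaving out 1 library gave 5 to 60 and 11 to 106. With a window of 5000 bp, 34.7% of the models called higher, 57.0% of those called lower and 49.3% of all tested models had a Foxn4 and Multicilin peak. The cause was not tested, except that summing by symbol and the fold of 1.5 test fewer units or a stricter question.

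Of all 1042 calls, 77 turned sign with all matching reads, 25 with uniquely matching reads and 1 with length correction. The shares of calls kept were 79.3%, 75.5% and 85.4%. Among the named models, direction changed with all matching reads in PDE6B (0.69), DENND2A (0.23), C1QA (0.49), TUBB2B (-0.55) and TFAP2B (0.73). With uniquely matching reads it changed in TP53I11 (-1.78) and CA4 on scaffold 47398 (-1.02), and with length correction in the same CA4 model (-0.0188). Summed by symbol it changed in CA4 on scaffold 96766 (1.63), OCLN (-0.0239), KLF5 (0.0328), TUBB2B (-0.53), ODC1 (0.16) and 2 FOXI1 models (0.95). The labels do not say that replicate numbers mark a shared clutch, and there are 2 numbers per group. Across models, which are not independent replicates, the difference of replicate 1 and 2 correlated at r = 0.11 between the Foxn4 groups, 0.22 between morpholino and Foxj1 CRISPR and 0.60 between the CRISPR groups. With the replicate number as a block the counts were 568 higher and 702 lower. Depth limits models near the floor, where fitted folds have no bound.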
